A study of Homo sapiens with 6 samples.

Results

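The ELR CXC chemokines and inflammatory interleukins were followed here as a set of 10 genes, out of 28181 genes listed in each library: the ligands CXCL1, CXCL2, CXCL3, CXCL5, CXCL6 and CXCL8, the interleukin 1 genes IL1A and IL1B, and IL6 and LIF of the interleukin 6 family. They were selected by name after earlier results of this same comparison were known, in which CXCL8 and CXCL3 passed one of the tests, so the differences between the groups chose the members. They are given below as a description, and the calls of the tests are printed for the members only beside the share of all genes called, with nothing read from them. All 10 reached the minimum, a mean of 1 normalized count over the libraries, and none was lost to the filter on low values. RNA was sequenced from UE7T-9, a mesenchymal stem cell line from human bone marrow immortalised with telomerase and a papillomavirus E7 gene, in 2 groups of 3 libraries. UE7T-9 SHC4 carried a lentiviral SHC4 gene under the CMV promoter. UE7T-9 Cont carried a GFP vector according to the study's methods, while the sample labels call these controls nontarget and give their genotype as wild type. Both groups were lentivirus-infected, puromycin-selected cells according to the same methods and were kept in DMEM with serum. The series text speaks of cell clones, and the labels call the libraries of a group biological replicates (bio rep). Neither says whether libraries of the same group came from different infections, clones or dishes. The adjusted p-values given here thus set a group difference against the spread between these libraries. What level of replication that spread reflects is not known.

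ELR CXC chemokines carry a glutamate, leucine and arginine motif before their first cysteines and attract neutrophils through the receptors CXCR1 and CXCR2. Interleukin 1 is a strong inducer of these chemokines, of IL-6 and of LIF in stromal cells, acting through NF-kappaB, AP-1 and C/EBP factors on their promoters and through AU-rich elements on the stability of their messengers. IL-6 and LIF signal through receptors that share the subunit gp130, and bone marrow stromal cells are a known source of both.

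The 6 ELR ligand genes lay within 359 kb of chromosome 4 (GRCh38, positions 73740506 to 74099293), with CXCL8 at one end and CXCL2 at the other. Their promoters are shown because all 6 held the same 9 letters, GGAATTTCC, which form the core of an NF-kappaB type site. The sequences are from RefSeq on GRCh38.p14, 5′ to 3′ on the strand of the gene, as 30-base windows with GGAATTTCC in capitals.
CXCL8, chr4:73740468-73740497, plus strand: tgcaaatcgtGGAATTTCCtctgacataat
CXCL6, chr4:73836579-73836608, plus strand: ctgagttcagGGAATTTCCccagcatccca
CXCL1, chr4:73869305-73869334, plus strand: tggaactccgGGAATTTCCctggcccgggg
CXCL5, chr4:73998748-73998777, minus strand: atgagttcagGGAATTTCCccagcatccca
CXCL3, chr4:74038748-74038777, minus strand: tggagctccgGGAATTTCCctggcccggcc
CXCL2, chr4:74099253-74099282, minus strand: tggagctccgGGAATTTCCctggcccggga
The first base of GGAATTTCC lay 91 bases before the RefSeq start of CXCL8, 89 before that of CXCL6, 90 for CXCL5, 78 for CXCL1 and CXCL3, and 77 for CXCL2. The windows of CXCL2, CXCL3, CXCL5 and CXCL6 lay inside the span that GENCODE 29 gives these genes, which starts further upstream than RefSeq, and those of CXCL8 and CXCL1 lay outside it. On both strands of the 250 bases before the start, GGAATTTCC was found in 145 of 35116 windows of all genes (0.413%). A gene can have several windows, and by gene it was found in 137 of 27305 (0.502%). The motif was searched after the promoters had been read, and a match of letters is a description, not a binding site. IL6 did not hold these letters and held the wider kappaB consensus, which can contain GGAATTTCC, 73 bases before its RefSeq start; it is shown with that consensus in capitals, and its window also lay inside the GENCODE span of the gene.
IL6, chr7:22727117-22727146, plus strand: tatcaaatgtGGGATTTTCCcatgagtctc
The kappaB consensus was present in 9.96% of all windows and in 11.8% of all genes. Among the members it was present in CXCL1, CXCL2, CXCL3, CXCL5, CXCL6 and IL6. The AP-1 motif TGACTCA was present in 4.20% of all windows and in 5.19% of all genes. Among the 9 members with an entry in the promoter table it was present in CXCL8 and IL1A. LIF had no entry. Outside the cluster, GENCODE 29 places IL1A at chr2:112773915-112784590 and IL1B at chr2:112829751-112836903, both on the minus strand, IL6 at chr7:22725884-22732002 on the plus strand and LIF at chr22:30240447-30246851 on the minus strand (GRCh38).

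The files held a normalized count per gene, the read count divided by a size factor of the library, and whole read counts could be recovered from them. Recovered depth was 18144993 to 27721397 reads per library, and 3 reads, used here as the floor, corresponded to a normalized count of 2.50 to 3.53. SHC4, the overexpressed gene, was at 56.5, 157 and 130 normalized counts in control replicates 1, 2 and 3, and at 134870, 119166 and 155006 in the SHC4 libraries. UE7T-9 Cont replicate 1 stood apart from the other controls: its correlation across genes was 0.975 with UE7T-9 SHC4 replicate 1, against 0.967 and 0.962 with Cont replicates 2 and 3. SHC4 replicate 1 differed from its own group too, by the mean chi-square per gene between reads of 2 libraries, which grows with their difference. It was 74.0 and 62.4 with SHC4 replicates 2 and 3, 13.1 between those, and 30.5 with Cont replicate 1. By correlation SHC4 replicate 1 was closest to its own group (0.978 and 0.975). Cont replicate 1 also bears on the members, so their log2 fold changes and calls are given with and without Cont replicate 1. The mesenchymal markers NT5E, THY1, ENG, VCAM1, PDGFRB, CD44, ALCAM and COL1A1 were present in all libraries, and their summed level was 372736 in Cont replicate 1 and 338356 in SHC4 replicate 1, against 122142 to 192645 in the other libraries, most of it COL1A1. PDGFRB, a receptor of pericytes and stromal cells, was at 4122, 1487 and 1678 in the controls and at 6635, 5281 and 5178 in the SHC4 libraries, and DESeq2 called it higher (log2 fold change 1.23, adjusted p 0.0171) while limma did not (adjusted p 0.162). THY1 was at 7742, 2940 and 2286 against 7845, 9570 and 7512, with a limma adjusted p of 0.234. NT5E went the other way, at 13089, 22365 and 20649 against 14682, 12068 and 16005, with a limma adjusted p of 0.508. Of the 8 mesenchymal markers 7 had a higher and 1 a lower fitted level in limma, where 50.3% of all genes were lower. By limma 0 of them were called, where 0.0608% of all genes were in either direction. Of 12 leukocyte markers, 8 were listed, with a sum of 204 to 400 in the controls and 238 to 320 in the SHC4 libraries, mainly HLA-DRA and CD14. PTPRC, the gene of the pan-leukocyte antigen CD45, was at 6.82 or less in each library, and LYZ was at 0 in 4 libraries. Summed endothelial markers were at 130 to 158 in the controls and 90.5 to 148 in the SHC4 libraries, with CDH5 at 0 in 4 libraries, and summed epithelial markers were at 36.5 to 65.3 and 19.1 to 75.6. The part of these marker levels in the results was not tested.

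CXCL8, the main neutrophil attractant of human cells, and CXCL3 and CXCL5 had the largest differences among the members. CXCL8 was at 12.7, 191 and 91.5 normalized counts in control replicates 1, 2 and 3, and at 3.52, 7.49 and 12.8 in the SHC4 libraries. The groups met at Cont replicate 1, which was 15.1-fold below Cont replicate 2 and just under the highest SHC4 library. Its mean was 98.3 ± 89.2 against 7.94 ± 4.66 (SD, n = 3 each). The fitted log2 fold change, here and below for UE7T-9 SHC4 against UE7T-9 Cont with limma on log2(normalized count + 1), was -2.95 (SE 0.87) for CXCL8. It was -4.04 without Cont replicate 1 and -2.14 without Cont replicate 2. Summed over libraries there were 268 reads against 24, a ratio of 12.3 with a 95% interval of 8.12 to 19.6 that covers counting error only.

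CXCL3, a close relative of CXCL1 and CXCL2, was at 11.7, 33.0 and 14.8 normalized counts in the controls and at 5.27, 0.832 and 3.49 in the SHC4 libraries. All SHC4 libraries were below all controls, and the log2 fold change was -2.35 (SE 0.63), from 55 reads against 10. It was -1.93 without Cont replicate 2 and -1.83 without SHC4 replicate 2. CXCL5, which epithelial and stromal cells release under interleukin 1, was at 6.82, 9.42 and 19.7 in the controls and at 0, 0 and 1.16 in the SHC4 libraries. A single read was found among the 3 SHC4 libraries against 35 in the controls, a ratio of 38.7 with a counting interval of 6.51 to 1572, and the groups did not overlap. Its log2 fold change was -3.20 (SE 0.64) with a pseudocount of 1 and -5.55 with a pseudocount of 0.1.

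CXCL1, CXCL2 and CXCL6 differed less. CXCL1, a growth-regulated chemokine of many stromal cells, was at 21.4, 74.2 and 57.1 normalized counts in the controls and 14.9, 29.1 and 52.4 in the SHC4 libraries, with a log2 fold change of -0.64 (SE 0.56). It was -1.16 without Cont replicate 1 and -0.20 without SHC4 replicate 1. CXCL2, which shares the receptor CXCR2, had 22.4, 61.2 and 45.3 against 17.6, 12.5 and 43.1, with a log2 fold change of -0.87 (SE 0.53). In both genes the highest SHC4 library, replicate 3, was above Cont replicate 1 and close to Cont replicate 3. CXCL6, a ligand of both receptors, had only 5 reads in each control and 1, 4 and 4 reads in the SHC4 libraries, and the normalized counts of 4.87, 5.89 and 4.92 against 0.879, 3.33 and 4.66 did not overlap. Its ratio of summed counts was 1.84 with a counting interval of 0.756 to 4.78, so no difference was detectable at this depth beyond counting error. Of the 25-base words in its transcripts, CXCL2 shared 27.9% with another ELR ligand, CXCL1 19.0% and CXCL3 11.9%, against 3.57% for CXCL6, 3.06% for CXCL5 and 0 for CXCL8. How reads that fit several of them were counted is not given in the sources used here, so the split between CXCL1, CXCL2 and CXCL3 is uncertain.

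**Figure D1:**
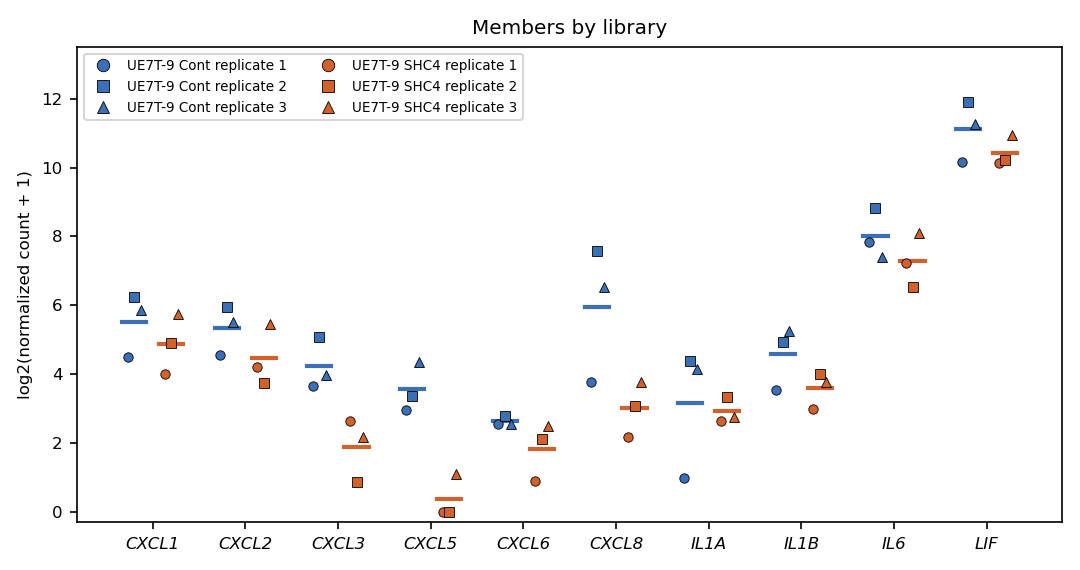
Normalized counts of the 10 members in each of the 6 libraries, as log2(normalized count + 1) on the vertical axis, with blue for UE7T-9 Cont, orange for UE7T-9 SHC4, marker shape for the replicate number and a short line at the mean of the group. The groups are separate for CXCL3, CXCL5 and CXCL6, and the blue circle of Cont replicate 1 is the lowest control in all members but IL6.

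The sum and the shares of the ELR ligands restate, within each library, the genes on which the set was chosen. The summed normalized count of the 6 ligands was 79.9, 374 and 233 in the controls and 42.2, 53.3 and 118 in the SHC4 libraries, with Cont replicate 1 below SHC4 replicate 3. CXCL8 made up 15.9% (exact binomial 95% interval 8.72 to 25.6), 50.9% (45.3 to 56.6) and 39.2% (33.0 to 45.8) of the ligand reads in the controls. In UE7T-9 SHC4 it made up 8.33% (2.32 to 20.0), 14.1% (6.64 to 25.02) and 10.9% (5.56 to 18.7). The share was lower in every SHC4 library than in every control, but the interval of Cont replicate 1 reached into those of the SHC4 libraries. The reads of CXCL8 per read of CXCL1, a ratio within a library that no scaling between libraries can move, were 0.591, 2.57 and 1.60 in the controls and 0.235, 0.257 and 0.244 in the SHC4 libraries. This ratio thus varied among the controls, and CXCL1 itself differed 3.51-fold between SHC4 replicates 3 and 1. The ratios of the SHC4 libraries rest on only 4, 9 and 11 reads of CXCL8. These are too few to tell whether the ratio was the same in the 3 libraries. The reads of CXCL2 per read of CXCL1 were 1.05, 0.825 and 0.793 against 1.18, 0.429 and 0.822, and overlapped.

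**Figure D2:**
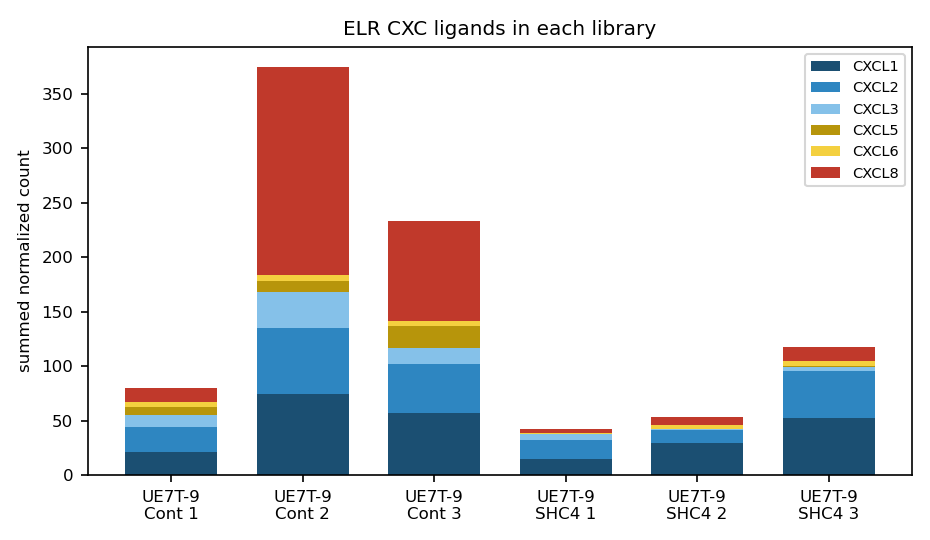
Summed normalized count of the 6 ELR CXC ligands in each UE7T-9 library, stacked by gene from CXCL1 at the bottom to CXCL8 at the top. The bars reach 374 and 233 in Cont replicates 2 and 3, where CXCL8 is the largest block, and 79.9 or less in Cont replicate 1 and SHC4 replicates 1 and 2, with SHC4 replicate 3 at 118.

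The interleukin 1 genes, which encode cytokines that induce the other members, were at few reads. IL1B, the secreted form that caspase 1 cleaves, was at 10.7, 29.4 and 37.4 normalized counts in the controls and 7.03, 15.0 and 12.8 in the SHC4 libraries, with a log2 fold change of -0.98 (SE 0.54). Cont replicate 1 was again within the range of the SHC4 libraries. IL1A, the form that is active without cleavage, had 0.975, 20.0 and 16.7 in the controls and 5.27, 9.16 and 5.82 in the SHC4 libraries. Cont replicate 1 held a single IL1A read and was the lowest of all 6 libraries, 20.5-fold below Cont replicate 2. The log2 fold change of IL1A was -0.25 (SE 0.86), and it was -1.35 without Cont replicate 1, 0.36 without Cont replicate 2 and 0.23 without Cont replicate 3, so its sign rested on single controls.

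IL6 and LIF, the interleukin 6 type cytokines, were the best covered members. LIF, a cytokine that keeps stem cells undifferentiated in mouse culture and acts on bone cells, was at 1155, 3844 and 2477 normalized counts in the controls and 1112, 1187 and 1980 in the SHC4 libraries. Cont replicate 1 lay with the lower SHC4 libraries, and the means were 2492 ± 1344 and 1426 ± 481 (SD, n = 3 each). The log2 fold change was -0.69 (SE 0.39), -1.16 without Cont replicate 1 and -0.30 without Cont replicate 2. IL6, a cytokine of the acute phase response and of plasma cell and osteoclast support, had 228, 457 and 168 in the controls and 149, 90.7 and 271 in the SHC4 libraries, with a log2 fold change of -0.75 (SE 0.44). The groups overlapped, since SHC4 replicate 3 was above Cont replicates 1 and 3, and the log2 fold change was -0.34 without Cont replicate 2 and -0.37 without SHC4 replicate 2. Reads of IL6 per read of LIF were 0.197, 0.119 and 0.0679 in the controls and 0.134, 0.0764 and 0.137 in the SHC4 libraries, with no separation of the groups.

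Per kb of exon, the mean normalized counts of the members in the controls were in the order LIF (628), IL6 (137), CXCL8 (43.2), CXCL1 (39.3), CXCL2 (28.6), CXCL3 (8.93), IL1B (8.35), IL1A (5.92), CXCL5 (4.72) and CXCL6 (2.39). Neighbours in this order from CXCL8 to CXCL2, and from CXCL3 to CXCL6, did not differ beyond the spread between libraries. In UE7T-9 SHC4 the order was LIF (359), IL6 (82.4), CXCL1 (24.8), CXCL2 (16.3), IL1B (3.75), CXCL8 (3.49), IL1A (3.18), CXCL3 (1.44), CXCL6 (1.35) and CXCL5 (0.153). In this group CXCL1 and CXCL2, IL1B to IL1A, and CXCL3 and CXCL6 did not differ beyond their spread. The place of CXCL8 next to CXCL1 rested on Cont replicates 2 and 3, where it was at 83.9 and 40.2 per kb against 57.2 and 44.0 for CXCL1. In Cont replicate 1 it was at 5.57 per kb against 16.5 for CXCL1, near CXCL3 (5.27) and IL1B (3.46). Without that library the control means kept LIF (796), IL6 (151.0), CXCL8 (62.0), CXCL1 (50.6) and CXCL2 (35.5) as the leading genes. LIF alone made up 78.3% to 87.6% of the members' summed normalized count in each library.

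All 10 members had a lower fitted level in the SHC4 libraries, where 50.3% of the 23040 genes tested had one, and their median log2 fold change was -0.83 against -0.004 over all genes tested. By limma 0 members were called lower, which took a Benjamini-Hochberg adjusted p under 0.05 with a log2 fold change under -1, where 0.00868% of all genes were. At an unadjusted p below 0.05, limma had 3 members lower (CXCL3, CXCL5 and CXCL8), where 6.96% of all genes were. DESeq2 on the recovered reads called 2 of the 8 members with an adjusted p, CXCL8 and CXCL3, where 1.15% of genes were called lower. edgeR called 0 of the 7 members it tested, where 0.0631% of genes were called in either direction, and had 2 lower at an unadjusted p below 0.05, where 8.6% of its genes were. The SHC4 libraries were all below all controls in 3 members, and in 10.2% of all genes. Without Cont replicate 1, limma called 3 members lower (CXCL5, CXCL8 and LIF), where 1.47% of genes were, and the median of the members was -1.31. The log2 fold change without this library was -1.27 for CXCL2, -2.63 for CXCL3, -3.50 for CXCL5, -0.83 for CXCL6, -1.50 for IL1B and -0.84 for IL6. With Cont replicate 2 left out instead, limma called 0 members, where 6 of all genes were called in either direction. The median of the members was then -0.64. Since the members were chosen on this comparison, nothing is read from these counts. In bulk RNA, fewer cells that express these genes and less of their RNA per cell cannot be told apart.

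**Figure D3:**
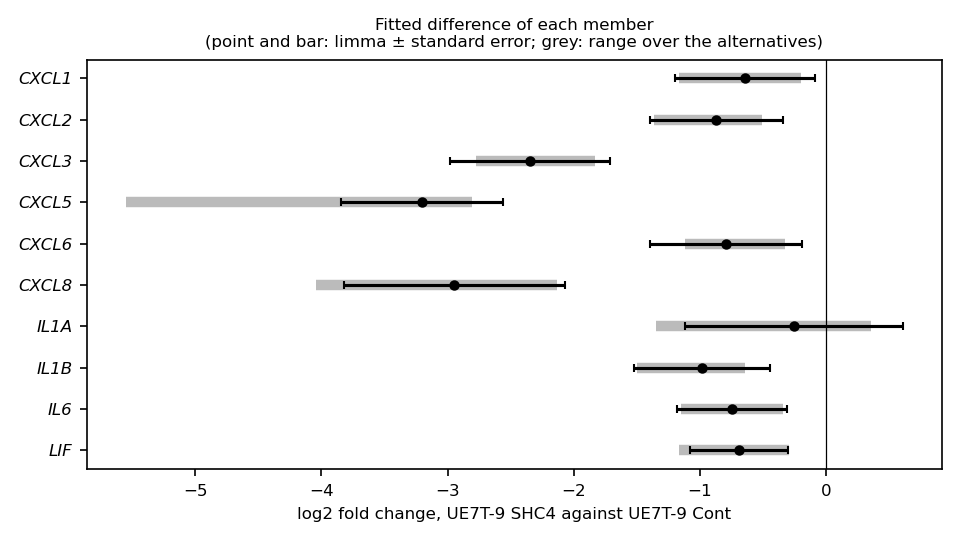
Log2 fold change of each member for UE7T-9 SHC4 against UE7T-9 Cont on the horizontal axis, with the limma value as a point, its standard error as a bar and the lowest to highest value over the alternative settings in grey. The points run from -3.20 for CXCL5 to -0.25 for IL1A, the member whose grey range crosses 0.

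The members shared much of their order across the single libraries of a group. Among the controls, replicate 1 was the lowest in 9 of the 10 members, against 42.2% of all genes tested, and replicate 2 the highest in 8, against 28.9%. Among the SHC4 libraries, replicate 3 was the highest in 7 members, against 32.0% of all genes, and replicate 1 alone the lowest in 6, against 35.8%. CXCL5 was at 0 in SHC4 replicates 1 and 2, so its lowest library was tied. CXCL6 had 5 reads in each control, so its order among the controls came from the size factors alone. Cont replicate 2 and SHC4 replicate 3 were both the highest of their group in 6 members, against 12.4% of all genes tested. Replicate 1 was the lowest of both groups in CXCL1, CXCL6, CXCL8, IL1A, IL1B and LIF, and in CXCL5 with the tie. How often this occurred over all genes was not counted, and its cause was not tested. In 7 of the 10 members Cont replicate 1 was below the highest SHC4 library. The share of all genes with that order was not counted, so nothing is read from it. CXCL3, IL1A and IL1B were the members that were not highest in replicate 3 among the SHC4 libraries, and IL6 was the member with its lowest control in replicate 3. With 3 libraries in a group the orders are a description, and no correlation was computed over the members.

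A mean profile was made from the 7 members whose mean was 10 normalized counts or more, each scaled to mean 0 and SD 1 over the 6 libraries. It stood at -0.34, 1.32 and 0.68 in the controls and at -0.90, -0.87 and 0.11 in the SHC4 libraries. CXCL3 and CXCL8, which passed a test before the set was chosen, are in it. Their means in the SHC4 libraries were 3.20 and 7.94, so they reached the minimum through the controls. The profile, with the r values and ranks built on it here and below, thus partly restates how the members were chosen. Among 15850 other genes that reached the same mean, the 8 whose log2 levels were most alike by Pearson's r over the 6 libraries were GGH (r = 0.998), LNX2 (0.996), SLAIN2 (0.995), PDIA6 (0.991), IKBIP (0.990), GLA (0.988), FLVCR1-DT (0.988) and BX890604.2 (0.987). These r values are a description, since all points share the 6 libraries and their group difference. Without Cont replicate 1 the r of these 8 genes was 0.986 to 0.998 over 5 libraries. These genes had a narrower range over the libraries than the members: GGH, a lysosomal hydrolase of folates, had 2033, 3579 and 2848 in the controls and 1648, 1693 and 2443 in the SHC4 libraries, and LNX2, a ubiquitin ligase, had 382, 443 and 415 against 366, 360 and 395. PDIA6, a disulfide isomerase of the endoplasmic reticulum, had 7561, 10491 and 9346 against 6401, 6863 and 8013.

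Of the genes in the pathway lists below, CASP1, BDKRB1 and PTGS2 had the highest r with the profile, named after their values were seen. CASP1, the protease that cleaves pro-IL-1 beta, had an r of 0.975 (rank 34) with 675, 998 and 967 normalized counts in the controls and 607, 646 and 779 in the SHC4 libraries. BDKRB1, the inducible bradykinin receptor, had an r of 0.959 (rank 73), with 65.3, 125 and 110 against 55.4, 55.8 and 65.2. PTGS2, the inducible cyclooxygenase, had an r of 0.955 (rank 95), with 127, 829 and 361 against 89.6, 110 and 408. At the other end of the same lists were VCAM1 (r = -0.905), GSDMD (-0.895) and TAB1 (-0.884). VCAM1, an adhesion molecule that inflammatory cytokines induce, was at 472, 164 and 245 in the controls and at 411, 476 and 426 in the SHC4 libraries, with Cont replicate 1 the highest control. FOS, FOSB and NFKBIZ were also highest of their group in Cont replicate 2 and SHC4 replicate 3. FOS, an immediate early AP-1 gene, was at 1292, 4704 and 466 against 893, 1642 and 10032, and FOSB at 110, 1925 and 100.3 against 58.9, 187 and 3264. NFKBIZ, which encodes an inducible coactivator of NF-kappaB at the IL6 gene, was at 497, 1352 and 954 against 415, 549 and 1293. FOS and FOSB thus reached their highest level in SHC4 replicate 3, whereas the 10 members all reached theirs in a control, replicate 2 in 8 of them and replicate 3 in CXCL5 and IL1B. The part of these genes in the members' order was not tested.

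**Figure D4:**
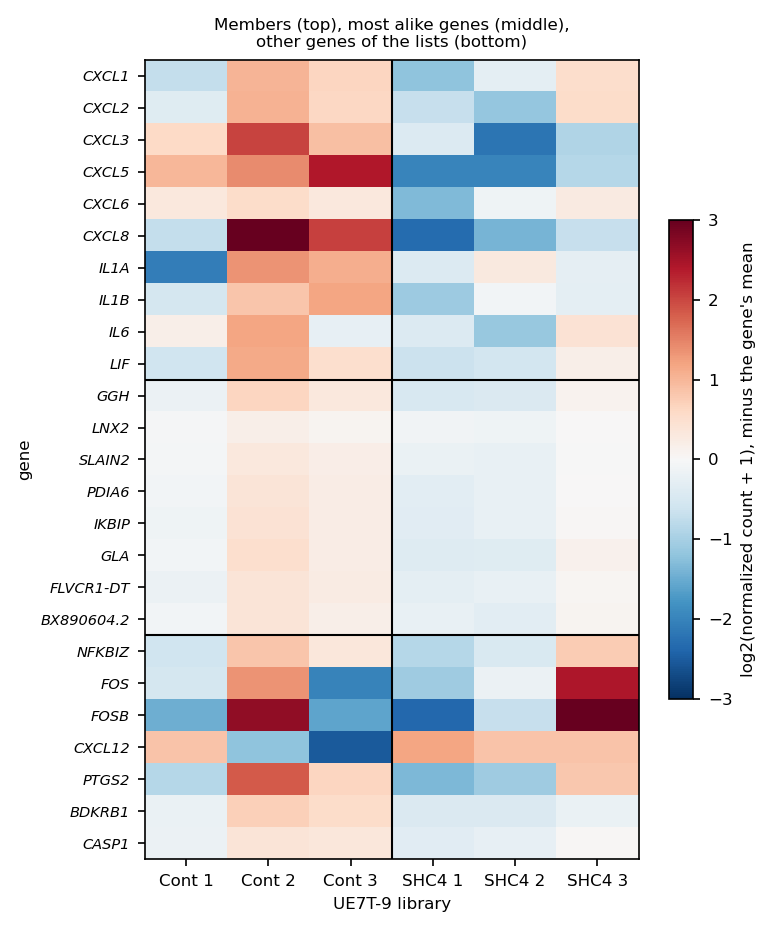
Log2(normalized count + 1) minus the mean of the gene over the 6 libraries, in color from blue (lower) to red (higher, limits -3 and 3), for the 10 members in the top block, the 8 most alike genes in the middle and 7 further genes of the lists in the bottom block. Cont replicate 2 is red in all 10 members and SHC4 replicate 1 is blue in all of them, while FOS and FOSB are reddest in SHC4 replicate 3 and CXCL12 is lowest in Cont replicate 3.

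The other genes of the pathway were taken from lists of receptors, signalling genes, transcription factors, RNA regulators, further ligands, further inflammatory genes and interleukin 1 processing genes. Of 119 genes, 112 were listed in the files and 104 passed the filter. Of these, 59 had a lower and 45 a higher fitted level, with a median log2 fold change of -0.06, where 50.3% of all genes were lower. In limma 0 were called, where 0.0608% of all genes were in either direction, and 9 lower and 8 higher genes had an unadjusted p below 0.05, where 14.4% of all genes did. DESeq2 called NLRP3 and MMP3 lower and SOD2 higher among 90 with an adjusted p, where 1.15% of genes were called lower and 1.05% higher. Without a fold threshold DESeq2 had 5 below an adjusted p of 0.05, LIFR and IL1RAP in addition, where 4.14% of genes were. edgeR called 0 of 86, with 6 lower and 6 higher at an unadjusted p below 0.05, where 17.6% of its genes were in either direction. Without Cont replicate 1, limma called 3 lower and 4 higher, where 3.06% of all genes were called in either direction. With Cont replicate 2 left out instead, it called 0, where 6 of all genes were called.

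Among the receptors of the members, 4 of 7 tested had a lower and 3 a higher fitted level, and none was called. Of the lower ones, CXCR2 and IL1R2 (4.87 or less in each library) were near the floor, and LIFR and IL1RAP were well covered. IL6R, IL6ST and IL1R1 were the higher ones, with log2 fold changes of 0.14, 0.29 and 0.34. LIFR, the LIF receptor subunit that pairs with gp130, was at 1367, 1363 and 1316 normalized counts in the controls and 896, 858 and 836 in the SHC4 libraries, without overlap and with little spread. Its log2 fold change was -0.64 (SE 0.11), with an adjusted p of 0.0887 in limma, 0.0871 in edgeR and 0.000245 in DESeq2. IL1RAP, the shared accessory chain of interleukin 1 receptors, had 605, 750 and 768 against 408, 414 and 476, a log2 fold change of -0.70 (SE 0.14) and an adjusted p of 0.117 in limma and 0.00516 in DESeq2. Without Cont replicate 1 the limma adjusted p was 0.0175 for LIFR and 0.0121 for IL1RAP, at log2 fold changes of -0.63 and -0.81. LIFR hardly differed among the controls (1.04-fold), and IL1RAP was lowest in Cont replicate 1, the control in which 9 members were lowest. The signalling chain IL1R1 was at 1647 ± 389 and 2092 ± 466, and gp130 (IL6ST) at 8709 ± 1096 and 10637 ± 1090 (SD, n = 3 each), both with overlapping groups. CXCR2, the receptor of the ELR ligands on neutrophils, was at 3.90 or less in each library, around the floor of 3 reads.

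The 26 genes from interleukin 1 to NF-kappaB signalling had 18 lower and 8 higher levels with a median log2 fold change of -0.04. CHUK, an IkappaB kinase, was at 907, 1107 and 1489 against 812, 848 and 883, with a log2 fold change of -0.43 (SE 0.18) and a limma adjusted p of 0.309. BCL3, an atypical IkappaB protein, was at 646, 378 and 321 against 571, 653 and 582, with a log2 fold change of 0.49 and an adjusted p of 0.386. RELA was at 960 ± 38.5 and 1112 ± 61.4, and NFKBIA, a feedback inhibitor induced by NF-kappaB itself, at 671 ± 89.9 and 682 ± 78.1 (SD, n = 3 each). The latter is a log2 fold change of 0.03 with an SE of 0.15. Of 12 C/EBP and AP-1 factors, 9 had a higher level, among them CEBPD (1513, 992 and 403 against 1552, 1750 and 2002), a log2 fold change of 1.05 (SE 0.39) with an adjusted p of 0.278, and 1.47 with an adjusted p of 0.0264 without Cont replicate 1. JUND followed with a log2 fold change of 0.54 and an adjusted p of 0.338. Of 11 regulators of AU-rich messengers, 6 had a higher level. ZFP36L2, which belongs to the family that promotes decay of such messengers, was at 6897, 5911 and 3482 against 6811, 11699 and 10910, a log2 fold change of 0.87 (SE 0.28) with an adjusted p of 0.226. ZFP36, the tristetraprolin gene, had a log2 fold change of 0.59 and an adjusted p of 0.433.

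Of 16 further ligands tested, 12 had a lower fitted level, where 50.3% of all genes did. Most of these held few reads, and edgeR kept only 7 of the list. The better covered CXCL16, CLCF1 and CTF1 hardly differed, with log2 fold changes of -0.15, -0.06 and 0.03. CXCL10, an interferon-induced chemokine that lacks the ELR motif, was at 5.85, 10.6 and 29.5 in the controls, 45 reads in all, and at 0 in the 3 SHC4 libraries. With the SHC4 group set to a floor of 3 reads, CXCL10 came out 16.6-fold lower, and 8.53-fold lower without Cont replicate 3, which held the most reads. The 95% counting interval of the ratio, which also covers the control reads, began at 12.9. The limma adjusted p was 0.0980, and 0.0119 without Cont replicate 1. IL11, a gp130 cytokine, was at 156, 173 and 206 against 128, 65.8 and 109, a log2 fold change of -0.86 (SE 0.27) with an adjusted p of 0.215. CXCL12, the chemokine that holds blood stem cells in the marrow, was at 19481, 4683 and 1880 in the controls and at 24558, 19535 and 19476 in the SHC4 libraries. Its order among the controls differed from that of the members, with Cont replicate 1 the highest, and its log2 fold change of 1.92 (SE 0.66) had an adjusted p of 0.250. With all libraries it was 1.29 in DESeq2 (adjusted p 0.516) and 1.29 in edgeR (adjusted p 0.395). Without Cont replicate 1 the limma value was 2.83 with an adjusted p of 0.00262.

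Of 26 further inflammatory genes of stromal cells, 15 had a lower and 11 a higher level. MMP3, a matrix protease induced by interleukin 1, was at 2.92, 118 and 66.9 against 8.79, 3.33 and 9.32, the pattern of CXCL8 with Cont replicate 1 low. DESeq2 called it (log2 fold change -3.14, adjusted p 0.0214) and limma did not (-2.06, adjusted p 0.433), except without Cont replicate 1 (-3.56, adjusted p 0.00703). SOD2, the mitochondrial superoxide dismutase and a textbook NF-kappaB target, was at 3688, 3725 and 3223 against 4055, 9438 and 8935. DESeq2 called it higher (log2 fold change 1.08, adjusted p 0.0108) and limma did not (0.98, adjusted p 0.199). Of the 6 interleukin 1 processing genes, NLRP3, the inflammasome sensor, was at 9.75, 33.0 and 61.0 against 2.64, 4.99 and 4.66, and all SHC4 libraries were below all controls. DESeq2 called it (log2 fold change -3.08, adjusted p 0.00619) and limma did not (-2.51, SE 0.65, adjusted p 0.180), except without Cont replicate 1 (-3.20, adjusted p 0.0117). PYCARD, the adaptor of the same complex, was at 147, 124 and 95.4 against 169, 246 and 221, a log2 fold change of 0.80 (SE 0.23) with an adjusted p of 0.195 in limma.

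**Figure D5:**
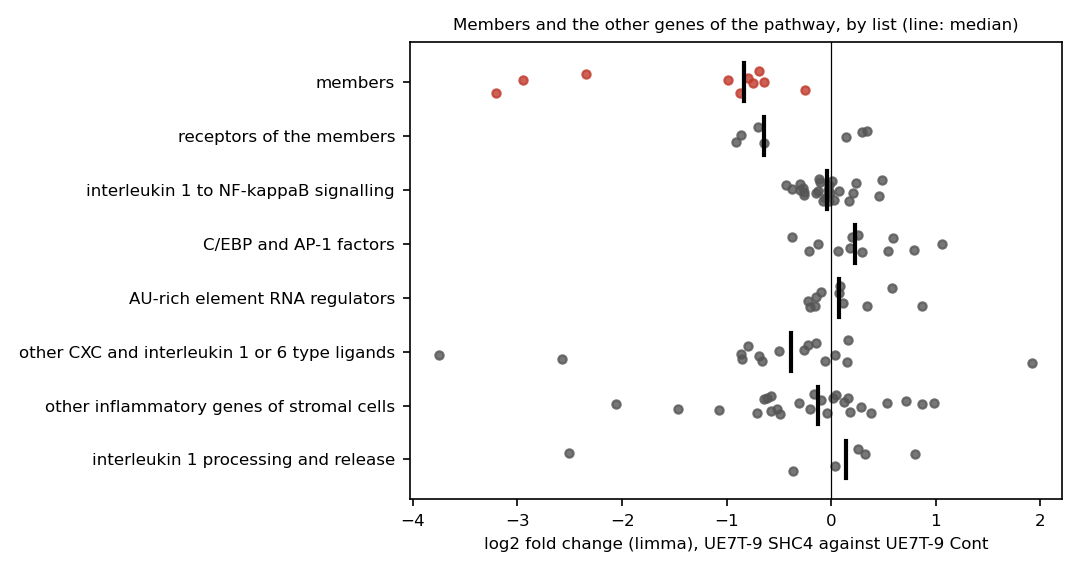
Limma log2 fold change of UE7T-9 SHC4 against UE7T-9 Cont for the 10 members (red) and for each tested gene of the 7 pathway lists (grey), 1 point per gene with a line at the median of each list. The medians run from -0.83 for the members and -0.64 for the receptors to 0.23 for the C/EBP and AP-1 factors, and the member points are all to the left of 0. The median of the receptors rests in part on CXCR2 and IL1R2, which were near the floor.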

How the data were processed

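Total RNA was extracted by column with DNase treatment and libraries were made with NEBNext Ultra kits. The authors deposited for each library a signal per gene, the normalized count, with Ensembl identifiers. The submitters' processing notes name HISAT2 2.0.5, featureCounts 1.5.0-p3 and DESeq2, while the genome build, annotation, strand setting and treatment of reads with several matches are not given in the sources used here. All nonzero values were whole multiples of what 1 read is worth in the library (100% within 0.01 reads), and the reads were recovered by division. Without strand information, reads of overlapping antisense genes cannot be told apart. All 28181 identifiers were matched to GENCODE 29 (GRCh38).

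Groups followed the labels. limma 3.58.1 (trend) was fitted in R 4.3.3 on log2(normalized count + 1) for the 23040 genes whose mean reached 1. Calls took a Benjamini-Hochberg adjusted p under 0.05 with a log2 fold change beyond 1 in either direction. Fold changes are on this scale, which can understate the change of genes with few reads and does not do so in each of them. DESeq2 1.42.0 and edgeR 4.0.16 (quasi-likelihood, TMM) on the recovered reads, other scalings, filters and pseudocounts, a replicate block and leaving out each library were alternatives. The test scripts were tested on simulated data. The members and all lists were chosen with earlier results of these data known. Named genes were all members, pathway genes called by limma or DESeq2, otherwise the pair with the smallest p of a list, and the 8 genes most alike to the members' profile. LIFR and IL1RAP were named as such a pair. RELA, NFKBIA, IL1R1, IL6ST, CXCR2, CXCL12, PDGFRB, THY1, VCAM1, GSDMD, TAB1, CASP1, BDKRB1, PTGS2, FOS, FOSB and NFKBIZ were named after their values were seen. The same holds for NT5E, PYCARD, IL6R, IL1R2, CXCL16, CLCF1 and CTF1. CXCR1, ACKR1, PPBP, CXCL14, CXCL17, IL36A and TNF were not analysed here.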

Additional observations from a re-analysis of the deposited data

How the results depend on the processing

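The log2 fold change was below 0 in 132 of 134 values of the members over the alternatives, the 2 exceptions being IL1A. CXCL5 moved from -3.20 to -5.14 with DESeq2 and to -5.55 with pseudocount 0.1. The number of members called was 0 in limma, 2 with DESeq2, and 0 to 3 when each library was left out, with 3 without UE7T-9 Cont replicate 1. Of the pathway genes 0 were called, against 3 with DESeq2, 5 with DESeq2 and no fold threshold (chosen after seeing the data), and 0 to 7 when each library was left out: 7 without UE7T-9 Cont replicate 1 (CEBPD, CXCL10, CXCL12, VCAM1, PTX3, MMP3 and NLRP3) and 1 without UE7T-9 SHC4 replicate 1 (SOD2). Over all genes, 14 were called, against 355 with DESeq2, 28 with library size scaling, 24 with TMM scaling, 40 with no filter on low values and 39 with the replicate block. It ranged from 2 to 706 when each library was left out: 706 without Cont replicate 1, 63 without SHC4 replicate 1, 6 without Cont replicate 2, and 2 without SHC4 replicate 2 or 3. The cause of these moves was not tested. Deviations of same-numbered libraries correlated at 0.148, 0.013 and -0.007, 2 of 6 libraries correlated best with their own number in the other group, and the numbers were not taken to pair the samples. The replicate block called 0 members and 0 pathway genes. Library size scaling shifted the median log2 fold change of all genes to -0.10. The orders of the members within the groups were recounted under library size and TMM scaling, also chosen after seeing the data, and the counts of members by highest and lowest library stayed the same. Values of pathway genes, likeness and levels without Cont replicate 1, and of CXCL10 without each control, were also added then. Members with under 10 reads in a library (CXCL3, CXCL5, CXCL6, CXCL8, IL1A and IL1B) were limited by depth.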
